A study of Mus musculus with 8 samples.

Results

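Cadherins and the non-clustered protocadherins are adhesion proteins of the cell surface, and 35 of the 32531 genes in each count table belong to them. They were taken as every gene symbol made of Cdh or Pcdh followed by a number, with or without a final x, so that the clustered Pcdha, Pcdhb and Pcdhg genes were left out. All 35 are annotated as protein-coding genes in GENCODE M21. By textbook classes they are 5 type I and 13 type II classical cadherins, 5 other cadherins, 4 delta-1 and 5 delta-2 protocadherins and 3 other protocadherins.

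The RNA was bound to tagged ribosomes of mice of the Drd1-EGFP/Rpl10a (CP73) line, aged over 20 months and not treated. In this line, cells that use the dopamine D1 receptor promoter carry a green fluorescent protein tag on L10a, a protein of the large ribosomal subunit, and polysomes were pulled down with antibodies to the tag. Both groups carry the transgene, and they differ in the dissected region: 4 libraries are from the dorsal striatum and 4 from the nucleus accumbens. The comparison asks which adhesion genes of D1 receptor-expressing cells differ between these regions at that age. The labels do not tell single animals from pools. The p-values therefore reflect only the spread between these samples, which may be technical.

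Classical cadherins hold cells together by binding a cadherin on the facing membrane in the presence of calcium. Their tails carry p120-family catenins and beta-catenin, and alpha-catenin links these to actin. Delta protocadherins adhere more weakly, and several delta-2 members recruit the WAVE complex, which starts branched actin networks. In the brain, combinations of these genes mark nuclei, layers and fibre pathways, and Pcdh17 and Pcdh10 are known for marking zones of the cortico-striatal circuit.

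Of the 35 genes, 26 passed the filter on low counts and were tested, and 6 of them differed between the regions by edgeR's quasi-likelihood test (threshold 0.05 on p adjusted by the Benjamini-Hochberg method over all tested genes). The background is 3.72% of all 12467 tested genes. Cdh8, Cdh9 and Cdh13 were higher in the dorsal striatum, where the background in that direction is 2.12%. Cdh2, Cdh4 and Pcdh19 were higher in the accumbens, where it is 1.60%. The largest of these differences was 2.17-fold (Pcdh19) and the smallest 1.57-fold (Cdh2). The median log2 fold change of the 26 tested members, given throughout as accumbens over dorsal striatum, was 0.13, beside 0.02 over all tested genes. Without regard to sign the medians were 0.67 and 0.29. Of the 26, Pcdh8 and Pcdh18 met the filter's minimum in all 4 accumbens libraries but not in all dorsal ones, and Cdh20 and Pcdh20 the reverse, so that the filter favoured the direction of these 4. Over the other 22, a selection made after seeing the data, the median was 0.13 and that without regard to sign 0.45. In bulk libraries, fewer cells of a type and less RNA per cell cannot be told apart.

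The calls of Cdh8, Cdh13 and Pcdh19 held under all 19 alternatives of normalization, filter, tool, covariate and libraries. Those of Cdh9 and Cdh4 held under 12 each and that of Cdh2 under 9. For Cdh8, Cdh13 and Pcdh19 the largest adjusted p, by the test of that alternative, was 0.0425, 0.0482 and 0.0478. Dorsal striatum 3 and accumbens 2 had the lowest mean correlation with the other libraries of their region across all tested genes (0.919 and 0.8997). With both left out, 2 members were called higher in the dorsal striatum and 1 in the accumbens.

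Promoter sequence of 22 members was found in a RefSeq table of GRCm38.p6, among them 3 of the 6 members that differed. They are shown as the regulatory start of genes that went in opposite directions, 5′ to 3′ on the gene's own strand. Cdh8 lies on the minus strand at chr8:99416472-99416721, Cdh9 on the plus strand at chr15:16728665-16728755 and Pcdh19 on the minus strand at chrX:133688994-133689243. Each ends just before the start site, or before the annotated gene where that begins earlier. Capitals mark CG dinucleotides.
Cdh8: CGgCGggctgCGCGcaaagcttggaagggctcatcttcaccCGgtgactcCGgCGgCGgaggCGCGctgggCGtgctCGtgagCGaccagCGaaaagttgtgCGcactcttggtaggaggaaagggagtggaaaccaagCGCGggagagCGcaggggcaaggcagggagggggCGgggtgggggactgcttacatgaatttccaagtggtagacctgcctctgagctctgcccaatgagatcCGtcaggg
Cdh9: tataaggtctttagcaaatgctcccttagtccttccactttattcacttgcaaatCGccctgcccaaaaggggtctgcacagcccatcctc
Pcdh19: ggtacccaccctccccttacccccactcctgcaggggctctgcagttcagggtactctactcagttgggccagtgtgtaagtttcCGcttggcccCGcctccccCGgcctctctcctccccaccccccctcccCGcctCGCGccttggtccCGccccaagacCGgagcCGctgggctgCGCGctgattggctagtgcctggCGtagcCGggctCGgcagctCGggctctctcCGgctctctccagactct
In the full 250 bases before the start site, Cdh8 holds 20 CG dinucleotides, Pcdh19 holds 16 and Cdh9 holds 6. For Cdh9 these 250 bases run into the annotated gene, so its counts here include bases inside it. The 91 bases of Cdh9 printed above hold 1 CG. The median over 32851 promoters in the table is 6, and 17.9%, 25.4% and 50.4% of them hold at least as many as these genes. The GC box GGGCGG, searched on both strands and itself holding a CG, occurs once in Cdh8 and once in Pcdh19 and not in Cdh9, against 32.7% of promoters with at least 1. The E-box CANNTG, which reads the same on both strands, occurs 3 times in Cdh9 and once in each of the others, against 66.2% of promoters. The box TATAAA is in none of these windows, against 12.4% of promoters. These are matches of letters, not measured binding sites.

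The labelled cells were checked first. Counts of markers that differed stand beside backgrounds of 2.12% (higher in dorsal striatum) and 1.60% (higher in accumbens). Drd1, whose promoter drives the tag, stood at 605 ± 60.9 CPM (read counts per gene scaled to a common library total after TMM normalization) in the dorsal and 435 ± 86.5 CPM in the accumbens libraries (SD, n = 4 each). Drd2, a marker of indirect-pathway neurons that the promoter should not mark, stood at 25.8 ± 7.97 and 56.0 ± 11.7 CPM. The summed level of 7 indirect-pathway markers was 229.5 to 369 CPM in the dorsal libraries and 701 to 983 CPM in the accumbens libraries, without overlap, and 4 of the 6 tested were higher in the accumbens. The sum of 7 direct-pathway markers was 2071 to 2307 and 1732 to 1991 CPM, without overlap. Of these 7, 2 were higher in the dorsal striatum and 1 in the accumbens. Markers of spiny projection neurons summed to 9321 to 10626 and 6912 to 8122 CPM, without overlap. Of 8 tested, 5 were higher in the dorsal striatum and 0 in the accumbens. Astrocyte markers summed to 199 to 373 and 261 to 701 CPM, and 1 of 7 tested was higher in the accumbens. Oligodendrocyte markers summed to 121.5 to 191 and 127 to 323 CPM, and 0 of 5 tested were called (0 at an unadjusted p under 0.05, and 0 by DESeq2 and by limma-voom). Endothelial markers summed to 7.81 to 93.9 and 12.9 to 202 CPM, and microglia markers to 0.887 to 3.50 and 1.88 to 15.2 CPM, with C1qa at 0 in every library. Markers of cortical excitatory neurons summed to 4.43 to 108.6 and 23.8 to 100.1 CPM. Those of GABA interneurons summed to 40.3 to 82.4 and 60.5 to 108.7 CPM. In each of these 2 lists edgeR called 0 of 5 tested, while DESeq2 called 0 cortical and 1 interneuron marker. Gene counts were 7466970 to 10363145 per dorsal library and 10831937 to 12639641 per accumbens library. Reads assigned to no gene were 27.1% to 33.8% of the total in the dorsal and 35.5% to 40.6% in the accumbens libraries, without overlap, and their part in the differences below was not tested. The part of the spiny projection, direct-pathway, indirect-pathway, cortical excitatory and interneuron cells in the differences below was not tested. That of the glial and endothelial markers is given as values with them as a covariate.

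Levels of different genes were compared per kilobase of exon, with exon lengths from GENCODE M21. On this scale Pcdh1, a delta-1 protocadherin, had the highest mean in both regions. It had 32.3 ± 4.94 CPM per kb in the dorsal and 37.1 ± 5.13 in the accumbens libraries (SD, n = 4 each). Pcdh17 followed at 20.3 ± 2.01 and 26.3 ± 2.75 CPM per kb. Before length scaling the accumbens mean of Pcdh17 (341 ± 35.7 CPM) was above that of Pcdh1 (326 ± 45.1 CPM). The order of these 2 there thus depends on the exon lengths used. In the dorsal striatum Pcdh1 was also the higher before scaling (284 ± 43.5 against 264 ± 26.1 CPM). In the dorsal striatum Pcdh17, Pcdh9 (17.2), Cdh8 (16.6) and Pcdh10 (15.7 CPM per kb) stood next to each other within their summed SDs. In the accumbens the next places went to Pcdh9 (18.8), Pcdh10 (15.6) and Cdh2 (14.4 CPM per kb), again within their summed SDs. Cdh8 held rank 4 in the dorsal striatum and rank 6 in the accumbens, and Cdh13 ranks 8 and 13. Cdh9 held ranks 7 and 9, Cdh2 ranks 9 and 5, Cdh4 ranks 11 and 7, and Pcdh19 ranks 17 and 12. Many of these ranks are not firm, since neighbours lay within their summed SDs. This held in the dorsal striatum for ranks 6 to 10 and from rank 11 on. In the accumbens it held for ranks 6 to 8 and from rank 9 on. Pcdh1, Pcdh17 and Pcdh9 together made up 36.03% to 38.7% of the length-scaled family total in the dorsal libraries and 41.3% to 44.9% in the accumbens libraries. The family as a whole summed to 1734 ± 116 CPM against 1788 ± 86.1 CPM, and the regions overlapped.

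**Figure D1:**
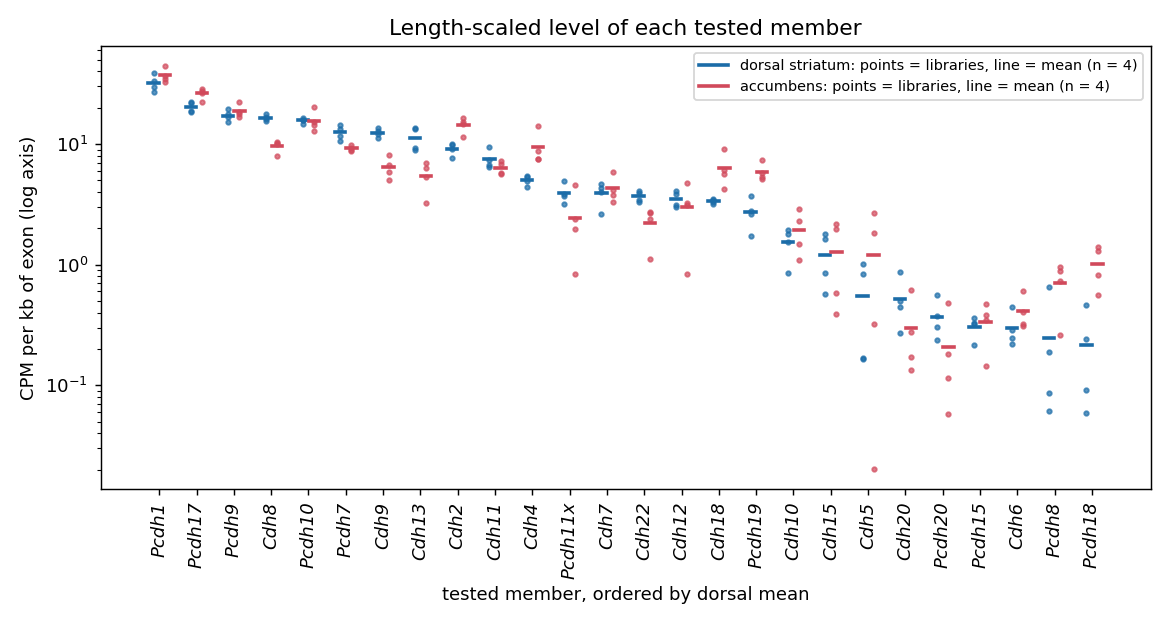
Length-scaled level (CPM per kb of exon, log axis) of the 26 tested members in dorsal striatum (blue) and accumbens (red), with a point for each library and a line at the mean of 4. On this scale the mean of Pcdh1 is highest in both regions. The order of the means of Cdh8, Cdh9, Cdh13, Cdh2, Cdh4 and Pcdh19 differs between the regions, though many neighbours lie within their summed SDs.

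The type I classical cadherins are the class of the epithelial and neural cadherins. Of these 5, 3 were tested and 2 were higher in the accumbens (background 1.60%). Cdh2 (N-cadherin, chromosome 18, 16588877 to 16809246) is the main cadherin of excitatory synapses and is also made by astrocytes. It stood at 73.8, 81.04, 61.98 and 78.9 CPM in dorsal libraries 1 to 4 and at 132, 118, 123 and 92.4 CPM in the accumbens libraries. Every accumbens library was above every dorsal one (log2 fold change 0.65 ± 0.17 SE, edgeR adjusted p = 0.0318). With astrocyte and oligodendrocyte markers as a covariate the log2 fold change was 0.64 ± 0.20 SE and the call was lost (edgeR adjusted p = 0.154). The estimate hardly moved, while its SE rose. This covariate, a mean of centred log2 CPM, averaged -0.25 ± 0.53 in the dorsal and 0.25 ± 0.33 in the accumbens libraries (SD, n = 4 each). It thus partly overlaps with region, and a call lost with it does not show a glial source. The call of Cdh2 was also lost without any single library other than accumbens 4, at adjusted p up to 0.110, and with the replicate number as a block (0.0562).

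Cdh4 (R-cadherin, chromosome 2, 179442431 to 179899373) can pair with N-cadherin. It stood at 38.8, 39.4, 35.6 and 32.03 CPM in the dorsal libraries and at 54.5, 102.6, 54.9 and 63.6 CPM in the accumbens libraries. The dorsal values lay close together, while accumbens 2 was far above the other accumbens libraries, and the regions did not overlap (log2 fold change 0.92 ± 0.22 SE, edgeR adjusted p = 0.0261). Without accumbens 2 the log2 fold change was 0.66 (adjusted p = 0.0924). The call was also lost without any single dorsal library, at adjusted p up to 0.0846, and with the glial covariate (log2 fold change 0.91 ± 0.27 SE, edgeR adjusted p = 0.130). Cdh15, the muscle cadherin, was at 3.94 ± 1.92 and 4.16 ± 3.01 CPM. Cdh1 and Cdh3, the epithelial and placental cadherins, had no count in any library. This allows up to 0.402 CPM before TMM scaling in the shallowest library (3 counts, for counting error only). The class summed to 103 to 123 CPM in the dorsal libraries and 162 to 222 CPM in the accumbens libraries, without overlap. These sums include the called Cdh2 and Cdh4.

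Type II cadherins, which also bind catenins but pair with each other by a different interface, had 11 of 13 members tested. Of these 11, 2 were higher in the dorsal striatum (background 2.12%) and 0 in the accumbens (background 1.60%). Cdh8 (chromosome 8, 99024471 to 99416471) stood at 138, 129, 124 and 121 CPM in the dorsal libraries and at 62.1, 76.9, 81.2 and 78.98 CPM in the accumbens libraries. The regions were far apart, with a coefficient of variation of 5.82% in dorsal striatum and 11.6% in accumbens. The level in dorsal striatum was 1.71-fold that in accumbens (log2 fold change -0.78 ± 0.15 SE, edgeR adjusted p = 0.00518), and over all alternatives the log2 fold change ran from -0.85 to -0.69. An exon of Cdh8 overlaps Gm15679 on the other strand, which had 1 count in all libraries together.

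Cdh9 (chromosome 15, 16728756 to 16857094), known for its part in forming particular hippocampal synapses, stood at 39.5, 42.5, 48.4 and 45.3 CPM in the dorsal libraries. In the accumbens libraries it stood at 23.5, 20.9, 28.6 and 17.97 CPM, all below the dorsal ones (log2 fold change -0.95 ± 0.23 SE, edgeR adjusted p = 0.0223). Leaving out 1 library ended the call for each of dorsal striatum 2, 3 and 4 and of accumbens 1 and 4, with adjusted p from 0.0547 to 0.0730. The glial covariate ended it too (log2 fold change -0.86, adjusted p = 0.146).

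The other 9 tested type II members were not called. Cdh18 stood at 14.6, 15.8, 15.6 and 15.1 CPM in the dorsal libraries and at 25.8, 41.5, 19.4 and 27.7 CPM in the accumbens libraries. The regions did not overlap, the dorsal values varied by 3.72% and the accumbens values by 32.5% (log2 fold change 0.91 ± 0.28 SE, edgeR adjusted p = 0.0881). DESeq2 called it higher in the accumbens (adjusted p = 0.0276). Cdh22 went the other way without overlap, with 15.03, 14.4, 12.3 and 12.8 CPM in the dorsal and 9.96, 4.09, 10.2 and 8.78 CPM in the accumbens libraries (log2 fold change -0.72 ± 0.38 SE, edgeR adjusted p = 0.395). Cdh11 had log2 fold changes of -0.23 ± 0.19 SE, Cdh7 of 0.14 ± 0.24 and Cdh10 of 0.33 ± 0.35. Cdh12 stood at 22.1 ± 3.40 CPM in the dorsal and 18.9 ± 10.2 CPM in the accumbens libraries, where accumbens 2 gave 5.29 CPM and the others 19.8 to 29.9. Cdh6 and Cdh20 were scarce, with means of 2.70 and 2.10 CPM in the dorsal and 3.71 and 1.20 CPM in the accumbens libraries. Cdh19 and Cdh24 did not pass the filter, with at most 4 and 9 counts in a library. The class summed to 342 to 358 CPM in the dorsal libraries and 272 to 309 CPM in the accumbens libraries, without overlap. These sums include the called Cdh8 and Cdh9.

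Cdh5 is the cadherin of endothelial junctions, and its values are given beside the endothelial markers of the same library. In dorsal libraries 1 to 4 it stood at 0.710, 3.50, 4.29 and 0.690 CPM, where 9 endothelial markers summed to 7.81, 40.4, 93.9 and 22.3 CPM. In accumbens libraries 1 to 4 it stood at 7.63, 0.0853, 1.34 and 11.3 CPM, beside marker sums of 86.0, 12.9, 27.2 and 202 CPM. The highest and the lowest Cdh5 values were both in accumbens libraries, and Cdh5 was not called (log2 fold change 1.15 ± 0.98 SE, edgeR adjusted p = 0.667). With the endothelial markers as a covariate its log2 fold change was -0.17, while those of Cdh8, Cdh13 and Pcdh19 were -0.76, -1.08 and 1.20 and these 3 were called.

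**Figure D2:**
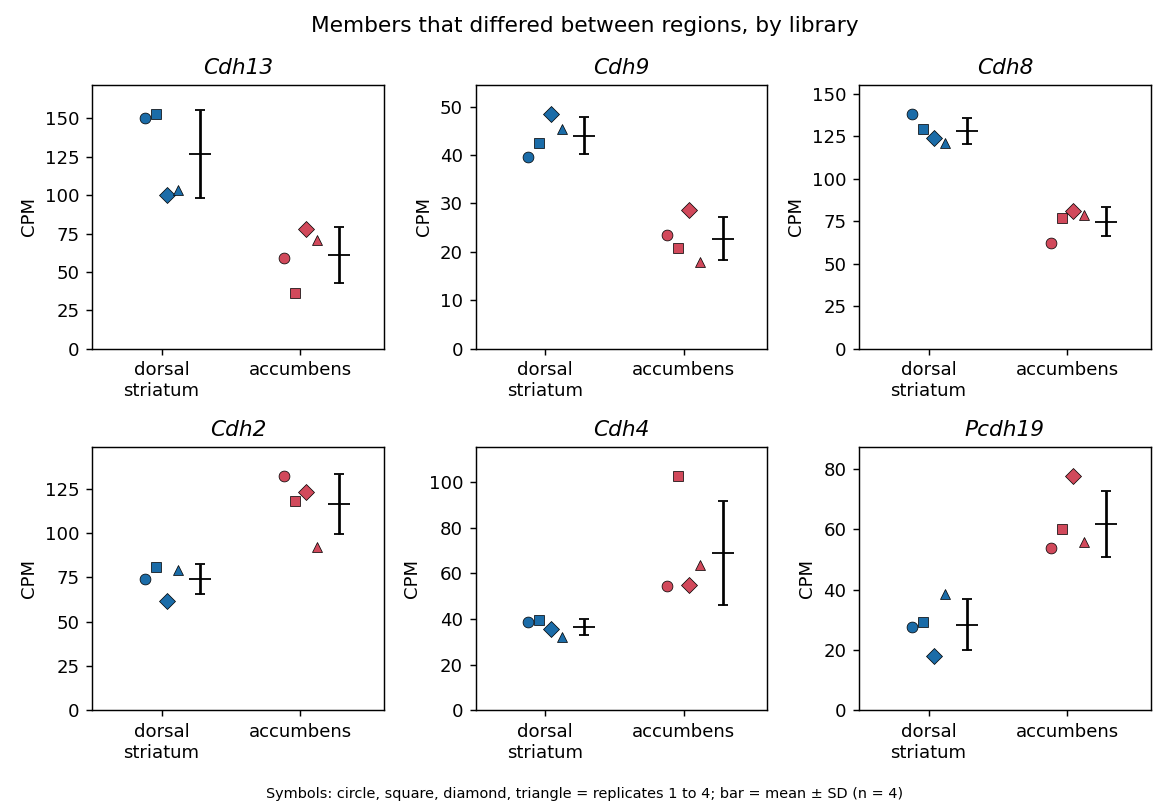
Level (CPM) of the 6 members that differed between the regions, with a symbol for each of 4 libraries per region (circle, square, diamond and triangle for replicates 1 to 4) and the mean ± SD beside them. Cdh13, Cdh9 and Cdh8 are higher in every dorsal library than in any accumbens library, and Cdh2, Cdh4 and Pcdh19 the reverse.

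Among the other cadherins, Cdh13 (T-cadherin, chromosome 8, 118283733 to 119324921) is held in the membrane by a lipid anchor and has no tail to bind catenins. It stood at 150.3, 153, 100.2 and 104 CPM in the dorsal libraries and at 59.4, 36.4, 78.2 and 70.5 CPM in the accumbens libraries. Dorsal libraries 1 and 2 lay well above 3 and 4, and accumbens 2 was the lowest, yet the regions did not overlap. The level was 2.07-fold higher in dorsal striatum (log2 fold change -1.05 ± 0.22 SE, edgeR adjusted p = 0.0102), and without accumbens 2 the log2 fold change was -0.87 (adjusted p = 0.0197). Without dorsal striatum 1 it was -0.96 (edgeR adjusted p = 0.0482), and without dorsal striatum 2 it was -0.95 (0.0441). Cdh23, a component of the tip links of hair cells, had at most 6 counts in a library. Cdh16 and Cdh26 had none, and Cdh17 had 1 count in all.

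Delta-1 protocadherins, whose tails bind protein phosphatase 1, gave no call. By edgeR 0 of 4 were called (background 3.72%) and 1 had an unadjusted p under 0.05, and DESeq2 and limma-voom called 0. That 1 was Pcdh7, at 152, 141, 124 and 112 CPM in the dorsal libraries and 98.4, 94.8, 104 and 92.9 CPM in the accumbens libraries. Its regions did not overlap, with a narrow spread of 5.02% in accumbens (log2 fold change -0.44 ± 0.15 SE, edgeR adjusted p = 0.138). Pcdh1 stood at 284 ± 43.5 and 326 ± 45.1 CPM (SD, n = 4 each) and Pcdh9 at 117 ± 12.01 and 128 ± 17.0 CPM, with log2 fold changes of 0.20 ± 0.14 and 0.13 ± 0.15 SE. Pcdh11x, on the X chromosome, stood at 44.1 to 69.4 CPM in dorsal striatum and at 33.5, 11.7, 63.9 and 27.7 CPM in accumbens libraries 1 to 4, so that the regions overlapped through accumbens 3 (log2 fold change -0.68 ± 0.35 SE, edgeR adjusted p = 0.390). The class summed to 521 to 663 CPM and 519 to 621 CPM, almost the same range in both regions.

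Of the 5 delta-2 protocadherins 1 was called, toward the accumbens (background 1.60%). Pcdh19 (X chromosome, 133582860 to 133688987), the gene of an X-linked epilepsy, can bind N-cadherin. It stood at 27.7, 29.3, 17.98 and 38.6 CPM in the dorsal libraries and at 53.8, 59.97, 77.6 and 55.6 CPM in the accumbens libraries. The lowest accumbens library was above the highest dorsal one (log2 fold change 1.12 ± 0.24 SE, edgeR adjusted p = 0.0108). Over all alternatives its log2 fold change ran from 0.95 to 1.31. Pcdh19 and Cdh2 were both higher in the accumbens, but the call of Cdh2 held under only 9 of 19 alternatives, and a link between them was not tested.

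Pcdh17 stood at 287, 244, 286 and 239 CPM in the dorsal libraries and at 289.9, 356, 372 and 347 CPM in the accumbens libraries. Accumbens 1 lay just above the highest dorsal library, and the gene was not called (log2 fold change 0.37 ± 0.13 SE, edgeR adjusted p = 0.148). Pcdh10 was at 249 ± 12.5 and 248 ± 50.8 CPM, with a log2 fold change of -0.01 ± 0.15 SE. Pcdh18 and Pcdh8 were scarce and passed the filter through their accumbens libraries, which favoured a log2 fold change above 0. Pcdh18 stood at 1.30, 0.318, 2.49 and 0.493 CPM in the dorsal libraries and 6.91, 4.44, 3.003 and 7.45 CPM in the accumbens libraries (log2 fold change 2.25 ± 0.78 SE, edgeR adjusted p = 0.144), and DESeq2 called it (adjusted p = 0.0325). Pcdh8 had 1.12 ± 1.25 and 3.21 ± 1.41 CPM. The class summed to 524 to 582 CPM and 595 to 741 CPM, without overlap, and these sums include the called Pcdh19. Of the remaining protocadherins, Pcdh15 was at 7.25 ± 1.47 and 7.98 ± 3.28 CPM, Pcdh20 at 2.03 ± 0.764 and 1.15 ± 1.04 CPM, and Pcdh12, an endothelial gene, had at most 3 counts in a library.

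**Figure D3:**
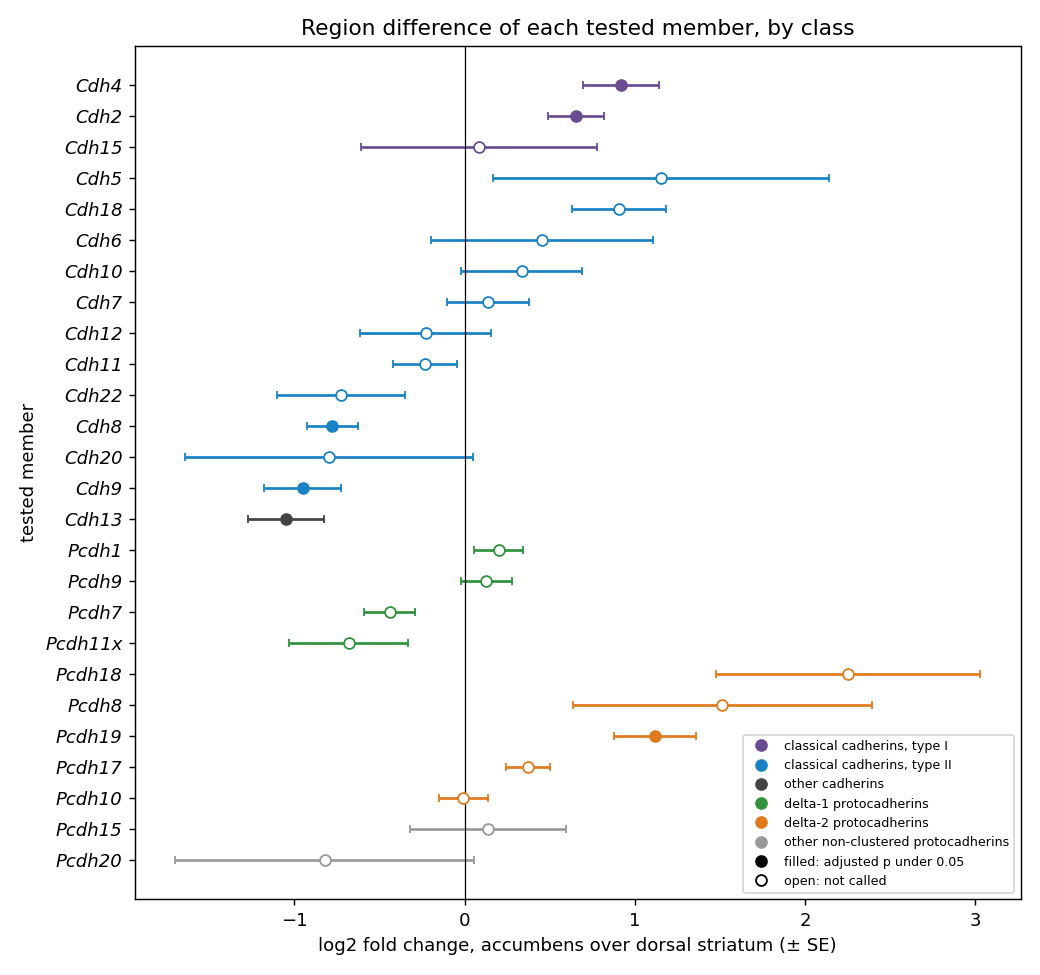
Log2 fold change (accumbens over dorsal striatum, ± SE) of the 26 tested members, ordered by class, with filled points for an adjusted p under 0.05. Calls to the right are Cdh4, Cdh2 and Pcdh19, calls to the left Cdh8, Cdh9 and Cdh13, and the widest errors belong to scarce genes such as Cdh5, Pcdh8 and Pcdh18.

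**Figure D4:**
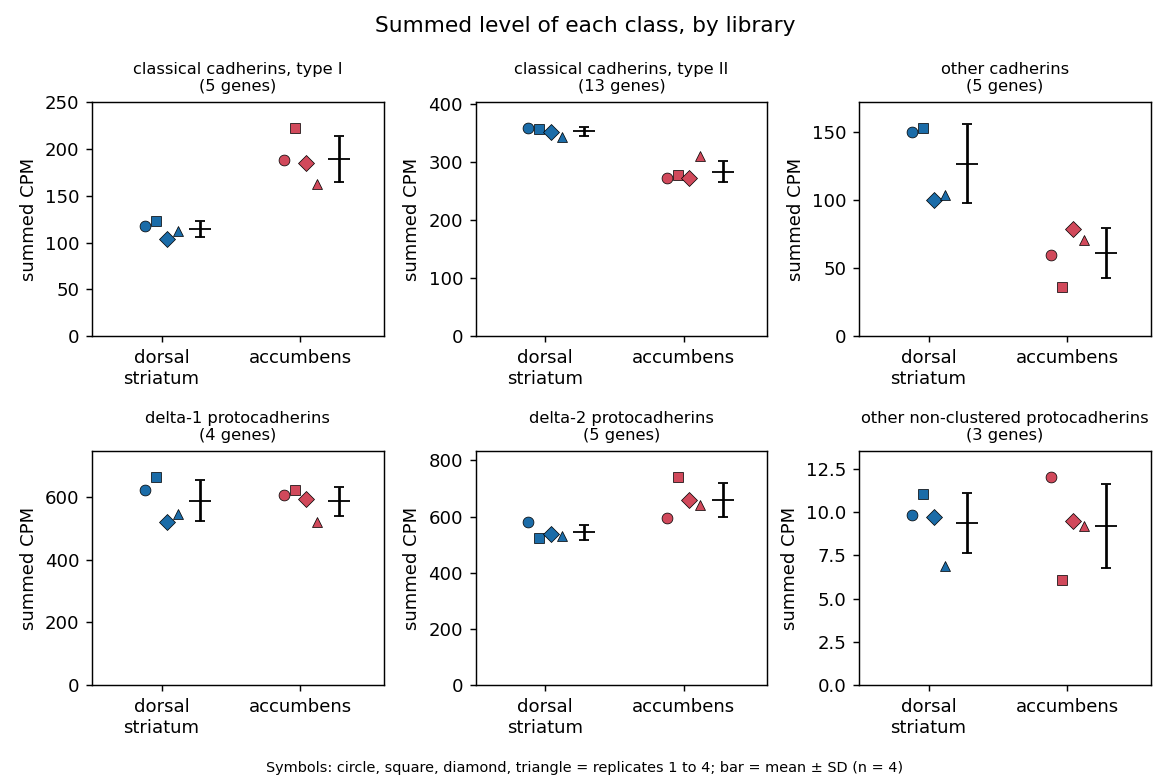
Summed CPM of the genes of each class in each library (symbols for replicates 1 to 4, mean ± SD of 4 beside them). The type I and delta-2 sums are higher in every accumbens library, the type II and other cadherin sums in every dorsal library, and the delta-1 sums overlap. These sums are a description and were not tested. They include the called members, so they show no difference of a class beyond those genes. Cdh13 gave 126.7 of the mean 126.8 CPM of the other cadherins in dorsal striatum. In the type II sums, with means of 352 dorsal and 283 accumbens CPM, Cdh8 gave 128 and 74.8 and Cdh9 44.0 and 22.7 CPM.

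For 11 of the 26 tested members every library of 1 region was above every library of the other, where the background over all tested genes is 9.69%. Of these, 6 were higher in the accumbens (background 4.51%) and 5 in the dorsal striatum (background 5.18%). Besides the 6 called they were Cdh18, Pcdh17 and Pcdh18 toward the accumbens and Cdh22 and Pcdh7 toward the dorsal striatum. Pcdh18 passed the filter through the accumbens libraries where it is high. Without the 4 members whose direction the filter favoured, 10 of 22 did not overlap, 5 in each direction.

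Several members lie on the same chromosome. Chromosome 15 carries 5 type II members, and their log2 fold changes were -0.95 for Cdh9, 0.91 for Cdh18, 0.33 for Cdh10, -0.23 for Cdh12 and 0.45 for Cdh6. Chromosome 8 carries 8 members, among them Cdh8 and Cdh13 with their dorsal excess, Cdh11 and Cdh15 without a call, and Cdh1, Cdh3 and Cdh16 with no count. Many members are long: 19 of 35 span over 100 kb of genome, and Cdh13 and Pcdh15 span 1041189 and 1550396 bases. Exons of 7 members overlap those of another gene in GENCODE M21, Cdh8, Cdh9, Pcdh10 and Pcdh19 among them, and since the strand setting of the counting was not given, such reads cannot be assigned with certainty.

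Single libraries spread unevenly over the members. Dorsal striatum 4 gave the lowest dorsal value for 12 of 26 tested members and dorsal striatum 2 the highest for 10. In the accumbens, library 3 was highest for 10 and lowest for 6, and library 2 was lowest for 8 and highest for 6. Among those lowest in library 2 were Cdh12, Cdh13, Cdh22, Pcdh11x and Pcdh15. Among those highest in it were Cdh4, Cdh7, Cdh18, Pcdh1 and Pcdh10.

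**Figure D5:**
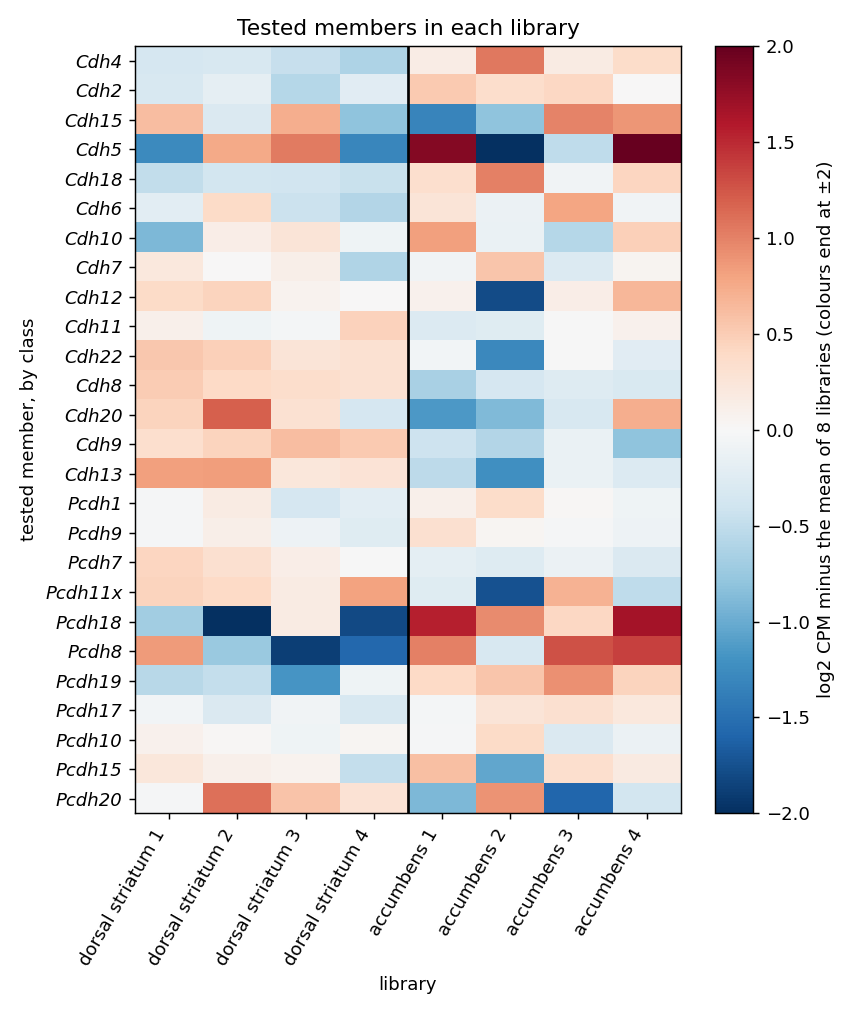
Log2 CPM of each tested member in each of 8 libraries minus its mean over the libraries (red above, blue below, colours ending at 2 on either side). Cdh8, Cdh9 and Cdh13 are red in the 4 dorsal columns and blue in the accumbens columns, while Cdh12 and Pcdh11x are deep blue in accumbens 2.

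The proteins that cadherins and protocadherins act through were examined as lists. Of 13 catenins and junction adaptors, 2 were higher in the dorsal striatum (background 2.12%) and 0 in the accumbens (background 1.60%). Their median log2 fold change was 0.03. Ctnnd2 (delta-catenin, a neuronal p120-family protein) stood at 647, 644, 879 and 843 CPM in the dorsal libraries and 433, 436, 423 and 439 CPM in the accumbens libraries (log2 fold change -0.80 ± 0.13 SE, edgeR adjusted p = 9.32e-04). The accumbens values were nearly identical, all well below the dorsal ones, and the call held under all 19 alternatives. Ctnna1 (alpha-E-catenin) had 86.2 ± 6.17 CPM against 47.7 ± 16.3 CPM (log2 fold change -0.85 ± 0.22 SE, edgeR adjusted p = 0.0352), but lost its call in 9 of the 19, among them without any single library other than accumbens 4 (adjusted p up to 0.112). Ctnnb1 (beta-catenin) ranged from 234 to 359 CPM in the dorsal and from 296.5 to 349.7 CPM in the accumbens libraries, with a log2 fold change of 0.12 ± 0.15 SE and no call. Pkp4, another p120-family gene, stood at 203 ± 28.1 and 284 ± 14.7 CPM and just missed the threshold (log2 fold change 0.48 ± 0.13 SE, edgeR adjusted p = 0.0506), which it passed in 7 alternatives, among them without dorsal striatum 3 (adjusted p = 0.0233).

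Of 9 genes of the WAVE complex, 2 were higher in the dorsal striatum (background 2.12%) and 0 in the accumbens (background 1.60%). Their median log2 fold change was -0.03. Nckap1 stood at 878, 885, 994 and 1150.3 CPM in the dorsal libraries and 622, 672, 656 and 628 CPM in the accumbens libraries (log2 fold change -0.60 ± 0.12 SE, edgeR adjusted p = 0.00470). The CPM of Cyfip2 were 1937 ± 178 against 1393 ± 123 (log2 fold change -0.48 ± 0.11 SE, edgeR adjusted p = 0.0170). Neither gene's regions overlapped. With the glial covariate the log2 fold changes were -0.46 and -0.42 and neither was called (adjusted p = 0.0725 and 0.119). Cyfip2 also lost its call without dorsal striatum 3 (adjusted p = 0.0532), without accumbens 1 (0.0720) and without dorsal striatum 3 and accumbens 2 together (0.0827). Wasf1 was at 702 ± 147 and 598 ± 55.3 CPM and was not called.

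The proteases that process cadherins gave no call: edgeR called 0 of 9 genes (background 3.72%). Of the 9, 0 had an unadjusted edgeR p under 0.05, and DESeq2 and limma-voom called 0. Psenen and Ncstn had log2 fold changes of -0.01 ± 0.21 and -0.08 ± 0.24 SE. Among 10 tested large atypical cadherins and calsyntenins, 2 were higher in the accumbens (background 1.60%) and 1 in the dorsal striatum (background 2.12%). Fat1, a giant cadherin of tissue growth and planar polarity, stood at 46.98, 53.4, 40.8 and 63.7 CPM in the dorsal libraries and 156, 151, 193 and 111 CPM in the accumbens libraries (log2 fold change 1.57 ± 0.19 SE, edgeR adjusted p = 9.10e-05). Its regions were far apart, and the call held under all 19 alternatives. Fat3 went the other way, at 389 ± 34.7 and 283 ± 13.01 CPM (log2 fold change -0.46 ± 0.12 SE, edgeR adjusted p = 0.0382), and kept its call in 9 alternatives, while it lost it without any single library other than dorsal striatum 4 (adjusted p up to 0.122). Fat4 had 2.99 ± 2.09 CPM against 16.3 ± 8.84 CPM (log2 fold change 2.44 ± 0.62 SE, edgeR adjusted p = 0.0318) and kept its call in 13, but not when replicate 3 or replicate 4 of either region was left out (largest adjusted p 0.136). No call was made for the abundant Clstn1 and Celsr2 (log2 fold changes 0.26 ± 0.16 and -0.10 ± 0.13 SE).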

How the data were processed

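The authors deposited a table of raw, whole-number counts per gene for each of 8 libraries, which their titles place in a region. Per the submitters' processing notes, STAR 2.0.0e and HTSeq were used with mm10. Not given in the sources used here were the annotation, the strand setting and any filter. Reads with no gene, several genes or several alignments made up 27.1% to 33.8% of each dorsal and 35.5% to 40.6% of each accumbens library and were left out. Differences were tested over all 12467 genes passing filterByExpr (minimum count 10) by the quasi-likelihood F test of edgeR 4.0.16 (R 4.3.3), after TMM, with region as the only term, and the script was tested on simulated data. An SE is the size of the log2 fold change over the square root of F. Library sizes for CPM were scaled by TMM, and a prior count of 2 was added before logs. The biological coefficient of variation was 0.415, so scarce genes are measured less precisely, and a count of 3 corresponds to 0.237 to 0.402 CPM before TMM scaling.

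The members and lists were chosen with earlier results of these data known. Every member is reported, and of each pathway list its called members and the 3 of highest mean CPM, as are Drd1, Drd2 and Rpl10a. A gene of these lists is not reported here. Rpl10a, whose protein carries the tag, stood at 194 ± 35.3 and 206 ± 25.2 CPM (SD, n = 4 each). The alternatives were normalization by RLE or by the upper quartile, no filter on counts, a filter of 1 CPM in 4 libraries or more, the tools DESeq2 1.42.0 and limma-voom (limma 3.58.1) with sample weights, a replicate block, glial and endothelial marker covariates, thinning to the smallest library, and libraries left out. No microglia marker passed the filter, so the glial covariate holds astrocyte and oligodendrocyte markers. Coordinates and exon lengths are those of GENCODE M21 on GRCm38, the same build as mm10, and may differ from the gene models the authors counted.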

Additional observations from a re-analysis of the deposited data

How the results depend on the processing

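Over all genes, 464 were called. The count was 245 with the glial covariate and 795 with DESeq2, and 324 to 411 with single libraries left out. The count of members called higher in accumbens, 3, was 1 with the glial covariate, 5 with DESeq2, 1 without accumbens 2 and dorsal striatum 3 together, and 1 to 3 with single libraries left out, at 1 without any single dorsal library or accumbens 2. The count called higher in dorsal striatum was 2 or 3 throughout. The labels do not say whether equal replicate numbers mark shared animals. Correlations of deviations between same-numbered libraries were 0.01, -0.08, -0.04 and -0.04. Those between libraries of unlike number ran from -0.13 to 0.11. Such correlations cannot tell whether the libraries were paired. With the replicate block, 432 genes were called, 2 members higher in accumbens and 3 in dorsal striatum. The block also took the call of Fat3 (adjusted p = 0.0546). Of all combinations of member and alternative, 443 kept direction and side of the threshold, 24 lost the call, 2 gained it and 25 changed sign. Every change of sign was in a gene without a call, and the cause was not tested.

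Log2 fold changes that changed sign were as follows. With the glial covariate they were -0.0255 for Cdh10, -0.497 for Cdh5, -0.159 for Pcdh15, -0.0233 for Pcdh9 and 0.244 for Psenen. With the endothelial covariate they were -0.0104 for Cdh15, -0.169 for Cdh5, 0.0255 for Pcdh10 and 0.0194 for Psenen. Limma-voom gave -0.187 for Cdh15, -0.0119 for Cdh7 and 0.0347 for Psenen. The replicate block gave -0.126 for Cdh15 and 0.000879 for Psenen, and thinning gave 0.00290 for Pcdh10. Without accumbens 2 and dorsal striatum 3 together they were 0.0272 for Cdh12, -0.00255 for Cdh7, 0.0570 for Ncstn and -0.0624 for Rpl10a. With single libraries left out the values crossed 0, with ranges of -0.543 to 0.0794 for Cdh12, -0.295 to 0.380 for Cdh15, -0.0581 to 0.248 for Cdh7, -0.157 to 0.0830 for Pcdh10, -0.0636 to 0.388 for Pcdh15, -0.246 to 0.0465 for Ncstn, -0.0815 to 0.137 for Psenen and -0.0295 to 0.171 for Rpl10a. Depth limits what can be said of Cdh5, Cdh6, Cdh15, Cdh20, Pcdh8, Pcdh18 and Pcdh20, which averaged under 6 CPM.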

Other observations

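The clustered protocadherins, which give single neurons distinct surface identities, were measured beside the members. Of 59 in the table, 50 were tested, and edgeR called 0 of them (background 3.72%). Without adjustment, 3 had an edgeR p under 0.05. The call counts were 1 by DESeq2 and 0 by limma-voom. Their median log2 fold change was 0.10, and they summed to 654 to 855 CPM in the dorsal libraries and 732 to 889 CPM in the accumbens libraries. Variants of the alpha and of the gamma cluster share their last exons, so reads there may have been left out as ambiguous, and 5 alpha entries had no count.

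In a check of single libraries within a region, the gap of the highest or lowest library over the range stayed under Dixon's 95% critical value for 4 samples in all 52 combinations of tested member and region.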
